A study of Mus musculus with 54 samples.

Results

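Respiratory complex I is assembled from subunits encoded in the nucleus and in the mitochondrial genome, and the genes described here are the nuclear ones. They were taken from the expression table by name: every row whose symbol starts with Ndufa, Ndufb, Ndufc, Ndufs or Ndufv followed by a digit, pseudogene names left out. This gave 37 genes of 55487 rows, all 37 annotated as protein coding and spread over 15 chromosomes, with 2 on the X chromosome. Of these, 35 encode structural subunits of the complex, and Ndufa4 and Ndufa4l2 carry the family name without being stable subunits of it. The samples were early proximal tubules positive for SGLT2 (encoded by Slc5a2, the main glucose transporter of that segment), cut from kidneys of male DBA mice aged 14 weeks by laser capture, with 70 to 80 tubules in each sample. Non-diabetic mice were Ins2+/+, and their diabetic littermates were Ins2 Akita/+, a dominant insulin mutation that misfolds the hormone and impairs beta cells. Both kinds of mice were either Sglt1+/+ (wild type) or Sglt1-/- (knockout, lacking the second proximal glucose transporter, encoded by Slc5a1). Treatment lasted 2 weeks and was vehicle, dapagliflozin (an SGLT2 inhibitor, 10 mg per kg of diet) or semaglutide (a GLP-1 receptor agonist, 3 nmol per kg of body weight each day under the skin), the last in Akita wild-type mice alone.

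The expression table held 48 of the 54 labelled samples, and the other 6 were not analysed here. On vehicle there were 5 libraries each of non-diabetic wild types and knockouts and 6 each of Akita wild types and knockouts. On dapagliflozin the numbers were 4 and 6 for the non-diabetic mice and 5 and 6 for the Akita mice, and on semaglutide there were 5. The labels do not name the mouse behind each library, so p-values measure the spread between these samples. The questions the design implies are what diabetes, loss of Sglt1, dapagliflozin and semaglutide each did to transcripts of the early proximal tubule.

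Complex I is the largest entry point of electrons into the respiratory chain: it oxidises NADH in the mitochondrial matrix, passes the electrons along a chain of iron-sulfur clusters to ubiquinone, and pumps protons across the inner membrane. Its matrix arm carries the redox centres on nuclear-encoded core subunits, its membrane arm carries the pumps on mitochondrially encoded ND subunits, and many accessory subunits wrap both arms and are needed for assembly and stability. Proximal tubule cells are dense in mitochondria because sodium-driven reabsorption of glucose, phosphate and amino acids runs on ATP from oxidative phosphorylation.

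The libraries were made from little RNA. Values were in TPM, a share of the transcripts of a library that is corrected for transcript length and so allows levels of different genes to be compared, and the read depth behind them is unknown. Between 8465 and 11419 genes were detected per library (median 10116). Nuclear protein-coding genes, a set from which Lars2 is left out here and below, took 5.96% to 14.03% of the TPM (median 9.75%). That share was small because a single row took 36.8% to 64.4% and mitochondrial ribosomal RNA 14.2% to 31.7%. In 4 libraries, 2 of Akita wild-type vehicle and 2 of Akita knockout vehicle, fewer than 9000 genes were detected. Slc5a1 was at 0.814 to 4.29 TPM in the 25 wild-type libraries and at 0 to 0.123 TPM in the 23 knockout libraries, so the genotype labels held in every library. All 6 of the early proximal tubule markers were detected, Slc5a2 at 82.5 to 275 TPM and Slc34a1 (the sodium-phosphate cotransporter) at 395 to 1057 TPM. Markers of the thick ascending limb summed to 20.3 to 159 TPM, with Cldn16 at 0 to 0.481 TPM, and the distal convoluted tubule marker Slc12a3 ranged from 1.32 to 229 TPM.

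The promoters shown belong to the most abundant subunit transcript, the least abundant structural one, and a subunit with a match to an ETS-type motif. Windows are the bases before the annotated gene, 5′ to 3′ on the gene's strand, from RefSeq's table on GRCm38.p6: Ndufa6 at chr15:82354323-82354541 (minus strand), Ndufb3 at chr1:58586147-58586383 (plus strand) and Ndufb6 at chr4:40279422-40279671 (minus strand). Capitals mark GCATGCGC in Ndufa6, the core of the palindrome bound by NRF1, and CTTCCGG in Ndufb6, the complement of the ETS-type CCGGAAG.
Ndufa6: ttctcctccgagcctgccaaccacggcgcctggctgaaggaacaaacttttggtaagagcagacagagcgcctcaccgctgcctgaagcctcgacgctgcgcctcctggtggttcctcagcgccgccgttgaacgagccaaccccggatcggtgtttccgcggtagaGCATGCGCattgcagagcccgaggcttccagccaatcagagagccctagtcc
Ndufb3: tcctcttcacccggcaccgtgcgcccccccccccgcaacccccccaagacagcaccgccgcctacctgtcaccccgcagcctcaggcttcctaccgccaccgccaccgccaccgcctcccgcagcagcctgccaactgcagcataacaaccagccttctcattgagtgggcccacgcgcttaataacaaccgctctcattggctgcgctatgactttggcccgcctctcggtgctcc
Ndufb6: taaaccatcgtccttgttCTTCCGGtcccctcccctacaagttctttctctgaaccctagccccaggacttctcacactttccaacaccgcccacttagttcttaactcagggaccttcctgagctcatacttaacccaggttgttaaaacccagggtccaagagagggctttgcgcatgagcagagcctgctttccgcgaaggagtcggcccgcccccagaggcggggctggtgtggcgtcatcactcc

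The promoter table held 34 windows for 32 of the 37 genes, and all motifs were searched as exact letters on both strands in the 250 bases before the start. GCATGCGC was found in 3 of the 34 windows (8.82%), those of Ndufa6, Ndufa8 and Ndufa11, against 2.26% of the 32851 windows of all genes. CCGGAAG was found in the windows of Ndufs3, Ndufb6 and Ndufb7 (8.82% against 6.91%), and TATAAA in 5 windows (14.7% against 12.4%). TCAAGGTCA, the site of oestrogen-related receptors, was in none of the 34 windows and in 0.387% of all. The member windows had a median GC content of 57.6%, against 52.4% for all windows. These matches describe letters and are not binding sites.

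The subunit transcripts spanned a 12.2-fold range of mean level among the 35 structural genes, from 5.18 ± 1.54 TPM for Ndufb3 to 63.0 ± 13.8 TPM for Ndufa6 (SD over 48 libraries). The plot of levels by structural role shows that the 7 core genes (means of 13.6 to 55.3 TPM), the 9 accessory genes of the matrix arm (7.79 to 63.0 TPM) and the 19 accessory genes of the membrane arm (5.18 to 41.7 TPM) overlapped in level. Transcripts of subunits that sit in 1 complex in equal numbers were therefore not at equal levels. All 37 genes passed the filter on low values used for testing, and 36 of them were above 0 in every library.

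**Figure D1:**
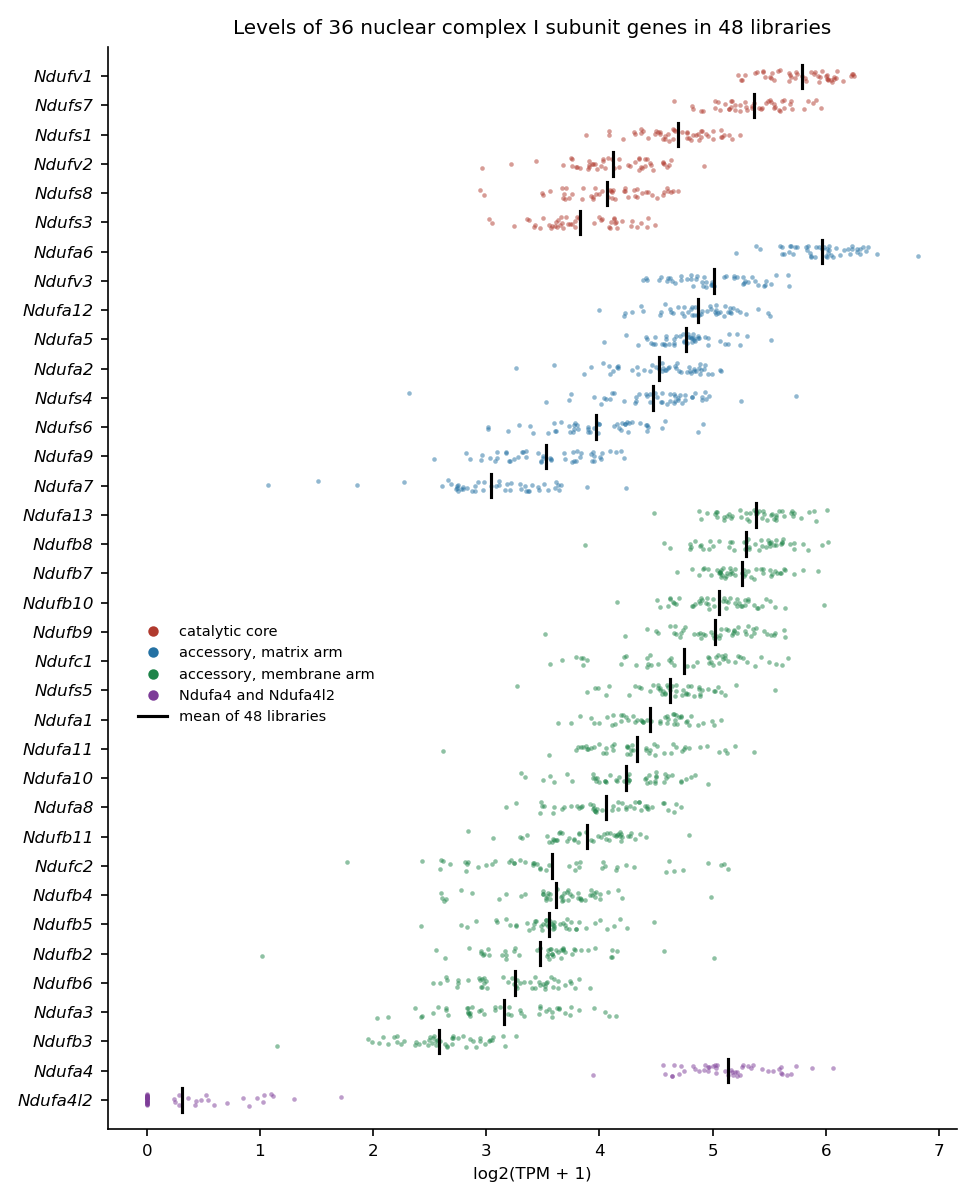
Level of 36 of the 37 genes as log2(TPM + 1) on the horizontal axis, 1 point per library, black bars for the mean of 48 libraries, colours for the structural role. Ndufa6 lies highest and Ndufa4l2 lowest, and the points of Ndufc2 spread most widely among the structural subunits.

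Among the core subunits, Ndufv1, which binds NADH and the flavin, was highest at 55.3 ± 11.1 TPM. Ndufs7, which holds the last iron-sulfur cluster before ubiquinone, was at 41.1 ± 8.94 TPM. Ndufs1, the largest subunit and the carrier of several iron-sulfur clusters, was at 25.4 ± 5.43 TPM. Ndufv2, Ndufs8 and Ndufs3 were at 16.995, 16.4 and 13.6 TPM, so the core genes differed 4.06-fold among themselves. Each of the last 3 had an SD of 3.64 to 4.50 TPM, and neighbours in that order overlapped.

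The matrix arm accessory genes were led by Ndufa6, an LYR-motif protein that anchors the mitochondrial acyl carrier protein. It was the highest of the 37 genes in 34 of 48 libraries and among the top 3 in 47, with Ndufv1 highest in 11 and Ndufa13 in 3. Ndufv3, Ndufa12 and Ndufa5 were at 32.2, 29.0 and 26.7 TPM, and Ndufa2 and Ndufs4 at 22.9 and 22.4 TPM. Ndufs4, whose loss destabilises the NADH-binding module, ranged from 3.98 to 52.4 TPM. Ndufs6, which carries a zinc ion, was at 15.3 TPM, Ndufa9, which holds a nucleotide near the ubiquinone site, at 11.02 TPM, and Ndufa7 at 7.79 TPM.

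In the membrane arm Ndufa13, also known as GRIM-19, was highest at 41.7 ± 8.95 TPM, with Ndufb8 at 39.6 ± 10.4 and Ndufb7 at 38.1 ± 7.62 TPM within that spread. Ndufb10, Ndufb9, Ndufc1, Ndufs5, Ndufa1 and Ndufa11 lay between 20.3 and 33.2 TPM. These include the X-linked Ndufa1, a small membrane-anchored subunit needed for assembly, at 21.4 ± 5.13 TPM. Ndufa10, Ndufa8, Ndufb11, Ndufc2, Ndufb4, Ndufb5 and Ndufb2 lay between 10.96 and 18.6 TPM. Ndufb6, Ndufa3 and Ndufb3 were the lowest, at 8.87, 8.53 and 5.18 TPM.

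Ndufa4, now counted as a subunit of cytochrome c oxidase, was at 35.6 ± 10.2 TPM. Its paralogue Ndufa4l2, known as a hypoxia-inducible gene, was listed at 0 in 27 of 48 libraries, reached 1 TPM in 6 and had a maximum of 2.28 TPM. The pair thus differed more than any structural subunits did. Exons of Ndufa4l2 overlap Shmt2 on the opposite strand, which was at 38.5 TPM, so low values of Ndufa4l2 are uncertain if strand was not used in counting, which is not given in the sources used here.

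Some levels are uncertain because near-identical copies exist elsewhere in the genome. BC002163 is 99.4% identical to Ndufs5 over the matched transcript and was itself at 4.46 TPM, beside 24.5 TPM for Ndufs5. Gm15920 is 99.5% identical to Ndufa12 and was at 2.45 TPM, beside 29.0 TPM. Gm15694 is 93.3% identical to Ndufa7 and was at 0.428 TPM, beside 7.79 TPM. Reads of each pair may have been split by the quantification. Exons of 14 members overlap a gene on the opposite strand, and for Ndufs1 that gene, Eef1b2 (an elongation factor subunit), was as abundant as Ndufs1 itself, at 28.6 TPM.

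The members varied about as much between libraries of a group as other genes did. The residual SD of log2(TPM + 1) had a median of 0.40 over the 37 members and 0.42 over all 12742 tested genes, and 26 of 37 members were below the latter. Ndufb7 was the steadiest at 0.26 and Ndufc2 the most variable at 0.73. The ratio of the highest to the lowest of the 9 group means had a median of 1.39 over the members, against 1.74 over all tested genes. It ran from 1.21 for Ndufa13 to 3.39 for Ndufc2 among the structural subunits. The 2 sets differ in level, with a median mean of 21.4 TPM over the members and 3.22 TPM over all tested genes. Neither the residual SD nor the ratio was compared at matched levels. Of the 37 genes, 17 had their highest group mean in Akita wild-type dapagliflozin and 11 in Akita knockout dapagliflozin, while 15 had their lowest in non-diabetic wild-type dapagliflozin.

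Summed over the 35 structural genes, complex I transcripts made up 469 to 1292 TPM per library (840 ± 161, SD, n = 48). The group means were 869 ± 104 in non-diabetic wild-type vehicle (n = 5), 827 ± 156 in non-diabetic knockout vehicle (n = 5), 795 ± 231 in Akita wild-type vehicle (n = 6) and 774 ± 171 in Akita knockout vehicle (n = 6). With dapagliflozin they were 736 ± 211 in non-diabetic wild type (n = 4), 883 ± 100.8 in non-diabetic knockout (n = 6), 922 ± 46.8 in Akita wild type (n = 5) and 925 ± 225 in Akita knockout (n = 6), and with semaglutide 809 ± 96.99 in Akita wild type (n = 5). The libraries of every pair of groups overlapped. In whole-tubule RNA, fewer cells of a type and less RNA per cell cannot be told apart.

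The highest summed level, 1292 TPM, came from the library with the largest share of nuclear protein-coding transcripts, 14.03%. The lowest, 469 TPM, came from a library where that share was 6.64%. That share had a median of 10.0% and 10.7% in the non-diabetic wild-type and knockout vehicle libraries, 8.90% and 8.47% in the Akita ones, and 10.4% and 10.1% in Akita mice on dapagliflozin. It was 8.13% and 10.1% in non-diabetic wild types and knockouts on dapagliflozin, and 8.70% on semaglutide. The sum did not follow the share in every group. Non-diabetic knockout vehicle had the highest median share but a median sum of 771 TPM, below the 873 TPM over all libraries. Taken as a percentage of nuclear protein-coding TPM, the 35 subunits made up 0.614% to 1.09% (0.869 ± 0.108, n = 48), and the order of the groups changed. Akita wild-type vehicle then had the highest mean, 0.923% ± 0.146, and non-diabetic knockout vehicle the lowest, 0.773% ± 0.0994. The core, matrix arm and membrane arm genes made up 25.3%, 27.5% and 47.2% of the summed TPM on average, with SDs of 1.71, 1.89 and 1.72 percentage points.

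**Figure D2:**
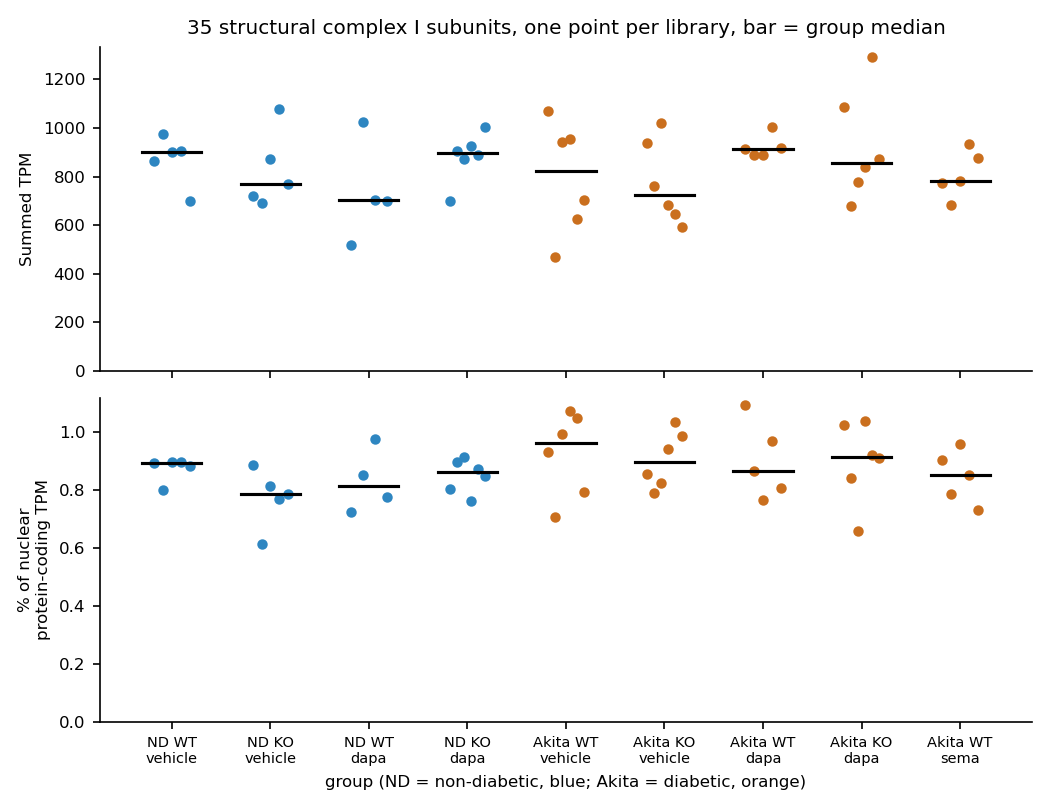
Summed TPM of the 35 structural subunits (top) and the same as a percentage of nuclear protein-coding TPM (bottom) in the 9 groups, 1 point per library, bars for the group median. Akita vehicle libraries include the lowest summed value, 469 TPM, yet Akita wild-type vehicle has the highest mean percentage.

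The 7 mitochondrially encoded ND genes, which supply the pumps of the membrane arm, summed to 1608 to 5684 TPM. They were 2.38 to 6.07 times the nuclear sum (4.12 ± 1.01, n = 48). The ratio was 4.31 ± 1.21 in non-diabetic wild-type vehicle and 3.59 ± 0.527 in Akita wild-type vehicle, with overlapping libraries. The mean levels of the ND genes ran from 18.3 TPM for mt-Nd3 to 821 TPM for mt-Nd1.

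In Akita mice, whose comparison with non-diabetic littermates asks what diabetes does, no complex I gene passed the test. All 12742 genes at 1 TPM or more in at least 5 libraries were fitted with limma, and a gene was called at a Benjamini-Hochberg adjusted p under 0.05. Over both Sglt1 genotypes on vehicle, 0 of 37 members were called, where 0.557% of all tested genes were called, and 1 member had an unadjusted p under 0.05, against 18.5% of genes. Of the 37 members, 33 had lower TPM values in Akita, as did 84.3% of all genes, with a median log2 difference of -0.16 against -0.20 for all genes. The difference was below 0 for 7 of 7 core, 7 of 9 matrix arm and 17 of 19 membrane arm genes. The 95% interval stayed within a 2-fold difference for all 37 members, which also held for 93.5% of genes.

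That direction depended on how the libraries were scaled. Under median-of-ratios scaling, which moved the median of all genes from -0.20 to -0.003, 30 of 37 members were above 0 in Akita, with a median of 0.11. Rescaling to nuclear protein-coding TPM and quantile normalization each also put 30 of 37 above 0. Without the 4 libraries of fewer than 9000 genes, 24 of 37 were above 0 and the median of all genes was -0.04. No member was called under any of these. Measured against other nuclear transcripts and averaged over both genotypes, most members thus lay on the higher side in Akita, without a call. By genotype, 33 or 34 of 37 were above 0 in knockouts after these 3 rescalings. In wild types only 19 or 21 of 37 were, with medians of 0.006 to 0.027.

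Ndufs1 had the smallest p of the members in this comparison. Non-diabetic wild-type vehicle libraries had 28.9, 34.5, 28.8, 24.0 and 22.6 TPM, and Akita wild-type vehicle libraries ran from 13.8 to 26.4 TPM with a median of 19.7. The groups overlapped, although all 6 Akita libraries lay below the non-diabetic mean. Over both genotypes the log2 difference was -0.31 ± 0.13 (SE, limma adjusted p = 0.188), and it shrank to -0.04 under median-of-ratios scaling. In wild-type mice alone, Ndufs1 differed by -0.44 ± 0.18 (limma adjusted p = 0.552). In the other direction Ndufa3, a small membrane arm subunit, had the smallest p over both genotypes, at 0.22 ± 0.21 (limma adjusted p = 0.567). It led that side within each genotype too, at 0.27 ± 0.30 in wild types and 0.16 ± 0.30 in knockouts, the latter turning to -0.072 without non-diabetic knockout vehicle replicate 2.

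Within wild-type mice 0 of 37 members were called (0.0235% of genes), 3 had an unadjusted p under 0.05 (7.6% of genes), and 28 of 37 were below 0, against 74.2% of genes. Within knockouts 0 of 37 were called (0% of genes), 1 had an unadjusted p under 0.05 (14.4% of genes), and 27 of 37 were below 0, against 81.4%, which became 18 of 37 without non-diabetic knockout vehicle replicate 5. The median of the members was -0.21 in wild types and -0.10 in knockouts, with all genes at -0.15 and -0.24. Under median-of-ratios scaling 34 of 37 members were above 0 in the knockouts and 19 of 37 in the wild types. That 1 was Ndufa4l2, at -0.57 ± 0.27 (limma adjusted p = 0.328), a gene listed at 0 in 5 of the 6 Akita knockout vehicle libraries. The difference between the genotypes in the diabetes effect gave 0 calls of 37 (0% of genes) and 0 members at an unadjusted p under 0.05 (3.19% of genes). Ndufa9 had its smallest p on the higher side, at 0.63 ± 0.35, and Ndufb7 on the lower side, at -0.40 ± 0.25.

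Dapagliflozin in Akita mice, the treatment comparison in the diabetic kidney, gave higher TPM values for nearly all members but no call. Over both genotypes 0 of 37 members were called, where 0.816% of genes were, and 35 of 37 were above 0, against 80.8% of genes. The median log2 difference was 0.27 for the members and 0.17 for all genes. The unadjusted p was under 0.05 for 10 members, all of them higher, where 17.5% of genes reached that level and 16.8% did so as higher. These 10 were Ndufs1, Ndufb6, Ndufb4, Ndufa12, Ndufb3, Ndufb9, Ndufs3, Ndufa10, Ndufv2 and Ndufa6, which come from the core and from both accessory sets. This comparison uses the same Akita vehicle libraries as the diabetes comparison, so the opposite signs of both are not separate observations.

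Here too the direction went with the scaling. Members above 0 numbered 22 of 37 under median-of-ratios scaling, 17 of 37 after rescaling to nuclear protein-coding TPM and 20 of 37 after quantile normalization, with medians of 0.01, -0.01 and 0.01. The member and all-gene medians lay closer together with a pseudocount of 0.1 (0.28 and 0.24) and with a filter at 5 TPM (0.27 and 0.22). Without the 4 libraries of fewer than 9000 genes, all of them Akita vehicle, 25 of 37 were above 0 with a median of 0.07, and the number of genes called over the whole table went from 104 to 0. The 95% interval in the TPM fit stayed within 2-fold for 36 of 37 members (94.7% of genes). The plot of differences with intervals shows most members to the right of the all-gene median by less than their own interval.

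**Figure D3:**
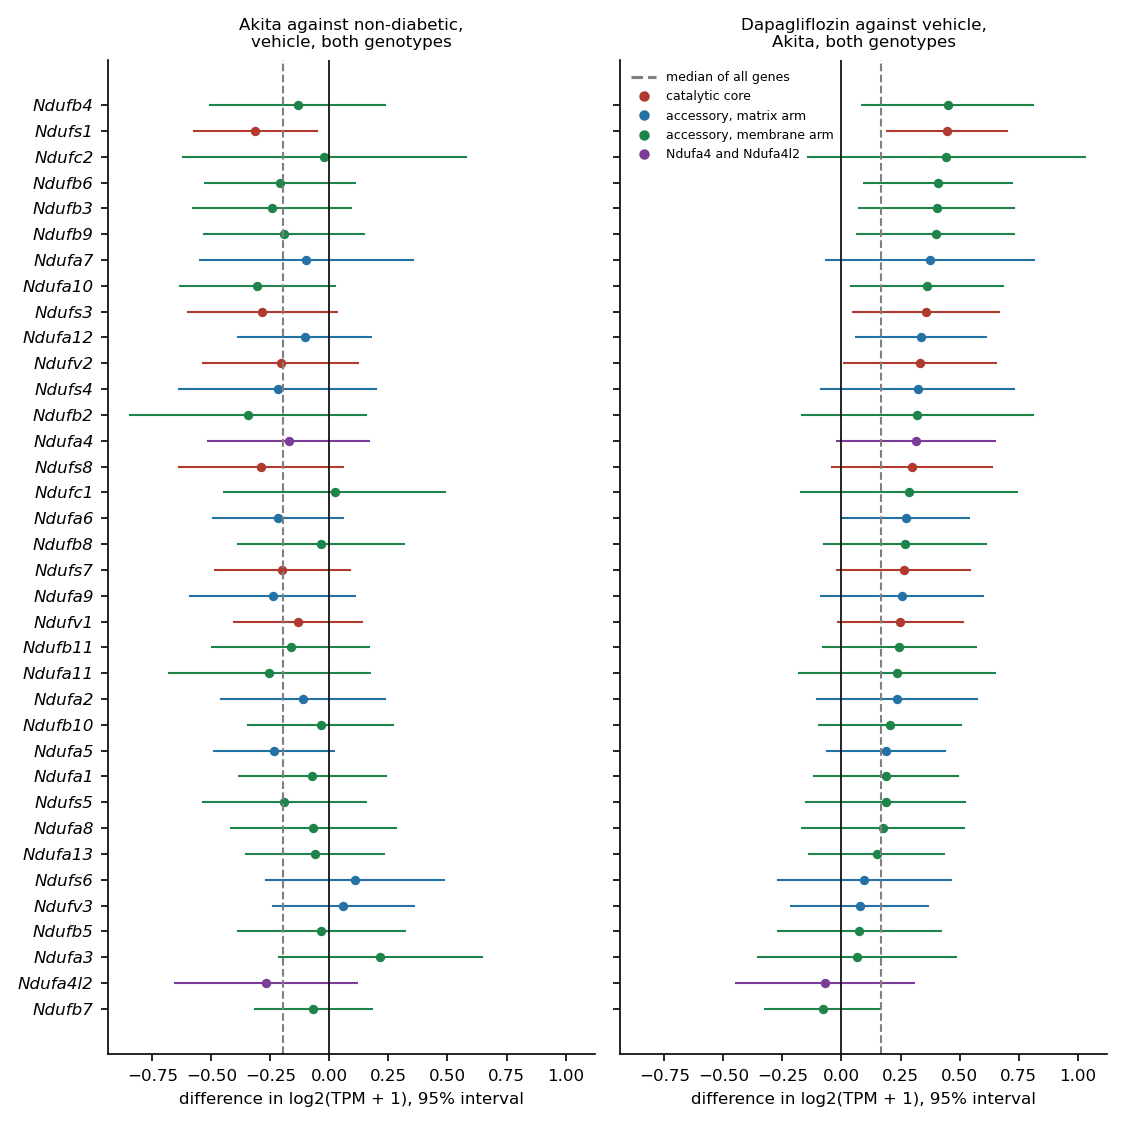
Difference in log2(TPM + 1) for 36 of the 37 genes with its 95% interval, Akita against non-diabetic on vehicle (left) and dapagliflozin against vehicle in Akita (right), each averaged over both Sglt1 genotypes; the dashed line is the median of all tested genes (-0.20 and 0.17). Ndufs1 has the highest lower bound on the right, at 0.19.

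Ndufs1 came closest to a call. Akita wild-type libraries had 27.1, 28.9, 31.2, 27.4 and 31.1 TPM on dapagliflozin, above all 6 on vehicle (13.8 to 26.4, median 19.7), and it was the only member whose 2 groups did not overlap there, which 0.981% of genes did in that direction. In Akita knockouts dapagliflozin libraries ran from 18.9 to 36.9 TPM (median 27.4) and vehicle libraries from 15.9 to 27.9 TPM (median 21.9), with overlap. The log2 difference over both genotypes was 0.45 ± 0.13 (95% interval 0.19 to 0.70, limma adjusted p = 0.0681). With a stricter filter of 5 TPM, which tested fewer genes, the limma adjusted p was 0.0444, the lowest of the alternatives that kept all libraries.

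That value rested on the scaling and on single libraries. Under median-of-ratios scaling the difference of Ndufs1 was 0.19 (limma adjusted p = 0.396), and without the 4 libraries of fewer than 9000 genes it was 0.29 (limma adjusted p = 0.851). Leaving out 1 library at a time gave limma adjusted p values of 0.0270 to 0.156, and Ndufs1 was called without Akita wild-type vehicle replicate 1 (0.0270), Akita knockout vehicle replicate 1 (0.0470) or 3 (0.0292), or Akita knockout dapagliflozin replicate 2 (0.0335). Eef1b2, the gene overlapping it on the opposite strand, differed by 0.11 ± 0.14 in the same comparison.

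Each genotype was also taken alone for dapagliflozin in Akita mice, and the difference between the genotypes was not tested. In wild types 0 of 37 were called (0% of genes), 3 had an unadjusted p under 0.05 (10.1% of genes), 34 of 37 were above 0 (77.5% of genes), and Ndufs1 led with 0.52 ± 0.18 (limma adjusted p = 0.326). In knockouts 0 of 37 were called (0% of genes), 4 had an unadjusted p under 0.05 (7.59% of genes), and 35 of 37 were above 0 (74% of genes). Under median-of-ratios scaling 19 and 22 of 37 were above 0 in wild types and knockouts, and without the libraries of fewer than 9000 genes 19 and 27 were. Ndufb7, one of the most abundant membrane arm transcripts, was the leading member below 0 over both genotypes, at -0.08 ± 0.12 (limma adjusted p = 0.757), with -0.11 ± 0.17 in wild types and -0.05 ± 0.17 in knockouts, where leaving out 1 library moved it between -0.136 and 0.053. Ndufb4, an accessory subunit of the membrane arm, had the smallest p in the knockouts: dapagliflozin libraries ran from 10.7 to 30.7 TPM (median 14.4) and vehicle libraries from 5.18 to 14.3 TPM (median 10.5), a difference of 0.71 ± 0.25 (limma adjusted p = 0.643). Its highest value, in dapagliflozin replicate 5, stood apart from the other 5 (10.7 to 15.8 TPM), and that library also had the highest nuclear protein-coding share, 14.03%. The difference was 0.52 without it.

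In non-diabetic wild-type mice the members pointed down on dapagliflozin. Of 37, 0 were called (0% of genes), 2 had an unadjusted p under 0.05 (4.05% of genes), and 33 were below 0, against 70.7% of genes, with medians of -0.27 and -0.13. Ndufa11, a membrane arm subunit, led the few above 0 with 0.22 ± 0.33 (limma adjusted p = 0.981). After the 3 rescalings 26 or 27 of 37 members were still below 0, with medians of -0.10. In non-diabetic knockouts 0 of 37 were called (0.00785% of genes), 1 had an unadjusted p under 0.05 (3.88% of genes), and 27 of 37 were above 0, against 40.2% of genes, with 28 to 30 of 37 above 0 after the rescalings. Ndufb4 led these with 0.45 ± 0.26, and Ndufa4l2, listed at 0 in 5 of the 6 dapagliflozin libraries, was the 1 with the low p, at -0.59 ± 0.27 (limma adjusted p = 1).

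The dapagliflozin effect in Akita minus that in non-diabetic mice had a median of 0.57 over the members in wild types, against 0.32 over all genes, and 35 of 37 members were above 0 (80.2% of genes). No member was called (0 of 37, 0% of genes), and 8 had an unadjusted p under 0.05. All 8 had a higher dapagliflozin effect in Akita, where 11.2% of genes reached that level and 10.9% did so in that direction. Ndufs1, Ndufa5, Ndufv2, Ndufs8 and Ndufb11 were among them, from the core and from both accessory sets. Ndufs1 had the smallest p, with 0.81 ± 0.27 (limma adjusted p = 0.324). This difference of differences was poorly bounded, since the interval stayed within 2-fold for 6 of 37 members (31.6% of genes), and its median over the members was 0.14 under median-of-ratios scaling. In knockouts the same difference had a median of 0.12, with 0 of 37 called (0% of genes) and 0 at an unadjusted p under 0.05 (4.98% of genes). There 31 of 37 members were above 0 (76.3% of genes), which became 8 of 37 under median-of-ratios scaling. On the higher side Ndufa4l2 had the smallest p, at 0.62 ± 0.38 (limma adjusted p = 0.876), and on the lower side Ndufv3, at -0.16 ± 0.29 (limma adjusted p = 0.926). In wild types the leading member below 0 was Ndufa4l2, at -0.33 ± 0.41 (limma adjusted p = 0.739).

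Loss of Sglt1 gave no call either. In non-diabetic mice on vehicle 0 of 37 were called (0.0235% of genes), 1 had an unadjusted p under 0.05 (4.61% of genes), and 26 of 37 members were below 0 while 34.5% of all genes were, with medians of -0.10 and 0.10. After the 3 rescalings 29 to 32 of 37 were below 0, so here the members lay on the lower side under each scaling. The members were measured in the same libraries, so they are not 37 separate observations. With group means removed, the member median minus the all-gene median had an SD of 0.20 over the 48 libraries. The gap here was -0.20 between 2 groups of 5 libraries, and it was not tested. With 1 library left out, 6 to 17 of 37 were above 0 and the median ran from -0.22 to -0.02. Ndufa9 had the smallest p: wild-type libraries had 15.1, 17.3, 12.7, 13.3 and 10.2 TPM and knockout libraries 6.77, 7.53, 10.3, 12.9 and 9.23 TPM. These overlapped, and the difference was -0.52 ± 0.26 (limma adjusted p = 0.981). On the higher side Ndufa4l2 had the smallest p, at 0.42 ± 0.28 (limma adjusted p = 0.981), with 2 libraries at 0 among the 5 wild types. In Akita mice 0 of 37 were called (0.0157% of genes) and 0 had an unadjusted p under 0.05 (1.95% of genes). There 22 of 37 were below 0 (46.8% of genes), and the median was -0.03 against 0.01 for all genes. Leaving out 1 library moved the members above 0 between 3 and 26 of 37. The median turned positive without any 1 of 6 libraries, replicates 1, 3 and 4 of Akita wild-type vehicle and 4, 5 and 6 of Akita knockout vehicle, at 0.005 to 0.09, so its direction rests on single libraries. Without the 4 libraries of fewer than 9000 genes 29 of 37 were below 0. Ndufs4 was at 0.42 ± 0.28, which became 0.057 without Akita wild-type vehicle replicate 2, and Ndufv3 at -0.25 ± 0.20 (both limma adjusted p = 1).

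**Figure D4:**
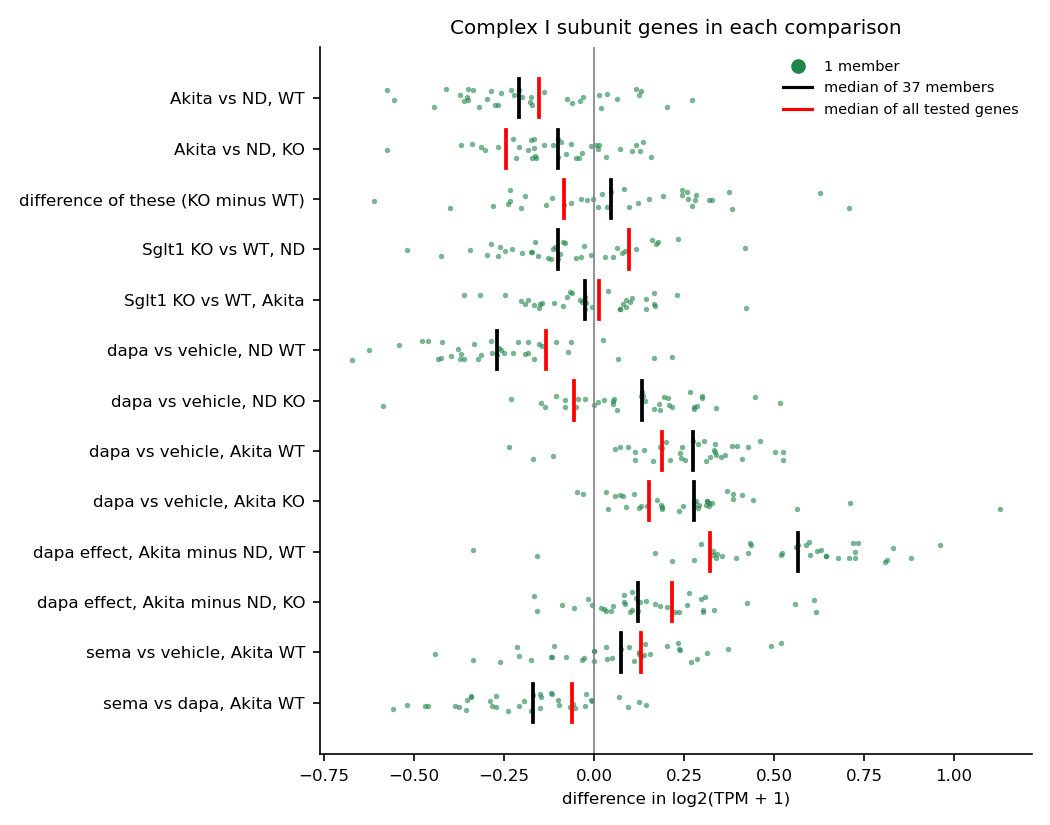
Differences in log2(TPM + 1) of the 37 genes (green points) in 13 comparisons, with the median of the members (black) and of all tested genes (red); WT and KO are Sglt1 genotypes and ND is non-diabetic. The member median lies below the all-gene median for the knockout in non-diabetic mice (-0.10 and 0.10) and above it for dapagliflozin in non-diabetic knockouts (0.13 and -0.06). Neither gap was tested against the spread of that gap between libraries (SD 0.20, n = 48).

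Ndufc2, an accessory subunit of the membrane arm, had the most uneven group means among the structural subunits, and it was singled out after its values were seen. In Akita knockouts on dapagliflozin it was at 34.3, 30.1, 25.7, 9.64, 32.8 and 7.27 TPM, and in non-diabetic knockouts on dapagliflozin at 6.62, 18.8, 5.04, 23.4, 24.2 and 23.1 TPM. Both groups were split, with 4 of 6 libraries in each above 16.8 TPM, the highest of the 25 wild-type libraries. On vehicle 1 of 5 non-diabetic knockout libraries (33.2 TPM) and 1 of 6 Akita knockout libraries (17.8 TPM) were above it. Dapagliflozin against vehicle differed by 1.13 ± 0.40 in Akita knockouts (limma adjusted p = 0.643) and by 0.52 ± 0.42 in non-diabetic knockouts (limma adjusted p = 1), neither of which passed the test. Across the alternatives these differences ran from 0.892 to 1.396 and from 0.31 to 0.93. The knockout on dapagliflozin against the wild type on dapagliflozin was not among the comparisons tested.

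**Figure D5:**
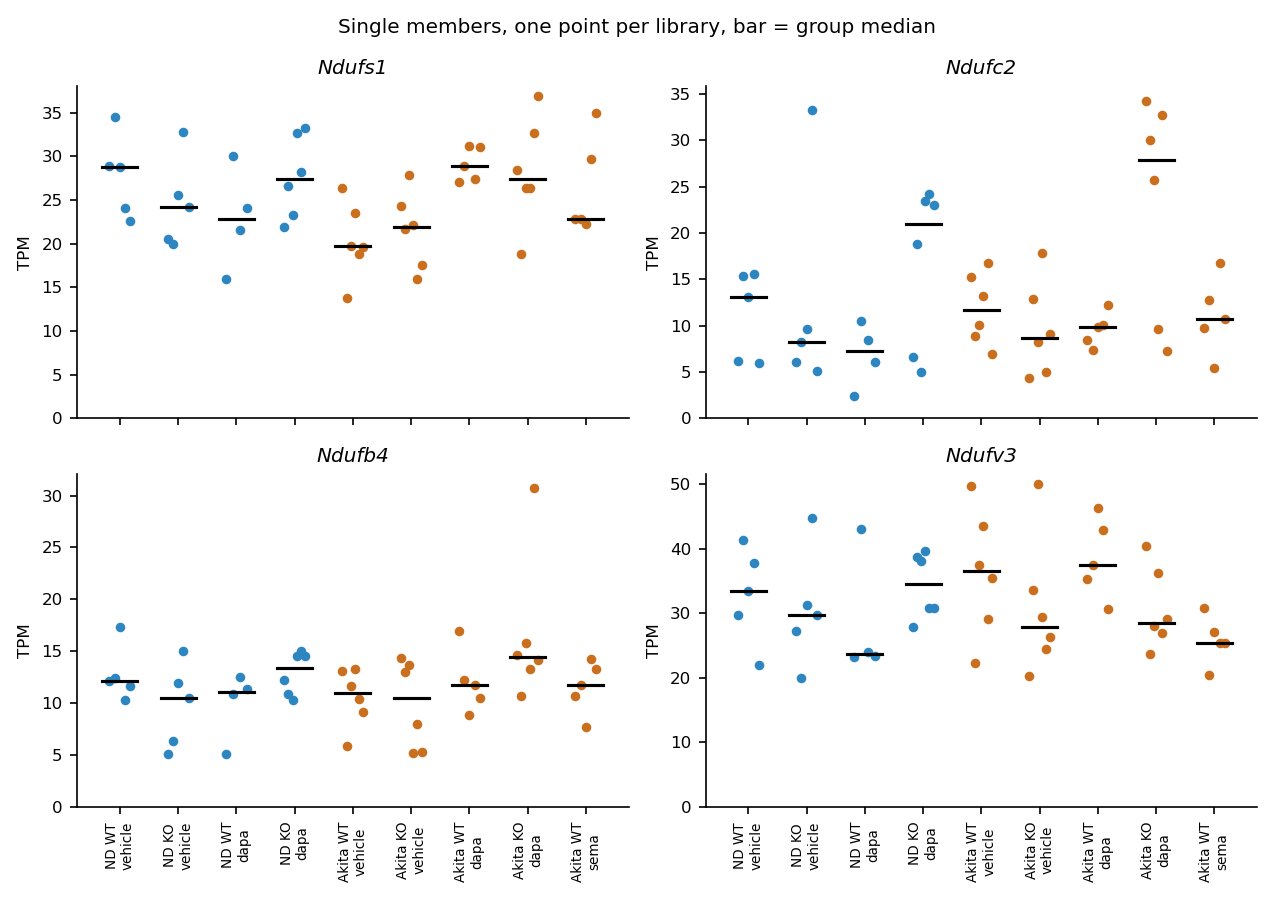
TPM of Ndufs1, Ndufc2, Ndufb4 and Ndufv3 in the 9 groups, 1 point per library, bars for the group median, blue for non-diabetic and orange for Akita. Ndufs1 on dapagliflozin in Akita wild types (27.1 to 31.2 TPM) lies above vehicle, and Ndufc2 splits into high and low libraries in both knockout groups on dapagliflozin.

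Semaglutide in Akita wild-type mice asks what GLP-1 receptor agonism does in the same segment. Of 37 members 0 were called (0% of genes), 3 had an unadjusted p under 0.05 (5.82% of genes), 23 were above 0 against 70.7% of genes, and the median was 0.07 against 0.13. After median-of-ratios scaling 10 of 37 were above 0, without the libraries of fewer than 9000 genes 4 of 37 (median -0.15), and with the capture number as a covariate 18 of 37 (median -0.01). The semaglutide libraries have capture numbers 88 to 99 only, as read from the library titles. Leaving out 1 library gave 12 to 29 of 37 above 0, and the 12, with a median of -0.07, came without Akita wild-type vehicle replicate 2. Ndufb3, the lowest structural subunit, was at 4.74, 4.87, 7.30, 7.33 and 4.60 TPM on semaglutide and at 1.22 to 7.84 TPM (median 3.45) on vehicle, a difference of 0.52 ± 0.24 (limma adjusted p = 0.845). Ndufv3, a subunit of the NADH-binding module, pointed the other way: it was at 30.8, 20.4, 27.0, 25.3 and 25.4 TPM on semaglutide and at 22.3 to 49.7 TPM (median 36.5) on vehicle. That difference was -0.44 ± 0.21 (limma adjusted p = 0.845), and both pairs of groups overlapped.

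Semaglutide was also set against dapagliflozin within Akita wild types. No member was called (0 of 37, 0% of genes), 1 had an unadjusted p under 0.05 (2.61% of genes), and 33 of 37 were lower on semaglutide, against 60.8% of genes, with 24 to 26 of 37 lower after the 3 rescalings. Ndufv3 had the smallest p, with 35.4, 37.5, 46.3, 42.9 and 30.7 TPM on dapagliflozin and a difference of -0.56 ± 0.22 (limma adjusted p = 1). The dapagliflozin values reached down to 30.7 TPM and the semaglutide values up to 30.8 TPM, so the groups met at a single pair of libraries. Ndufb5 led the 4 members above 0, at 0.14 ± 0.26.

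The other genes of oxidative phosphorylation gave no call either. Of the 19 listed assembly factors, which build the complex without staying in it, 18 were in the table and all 18 were tested, with means of 1.13 to 16.7 TPM, and none was called in either direction in any of the 15 comparisons. Neither was any of the 7 mitochondrial ND genes, the 4 genes of complex II, 9 of complex III, 10 of complex IV and 15 of complex V, or the 7 regulators (Ppargc1a, Ppargc1b, Esrra, Nrf1, Gabpa, Yy1 and Tfam). In Akita mice on dapagliflozin the assembly factors had a median difference of 0.26, led by Ndufaf4 at 0.39 ± 0.15 (limma adjusted p = 0.166). Complexes II, III, IV and V had medians of 0.22, 0.22, 0.26 and 0.23, close to the 0.27 of the complex I genes. The median of all tested genes was 0.17 in this comparison, with 80.8% of genes above 0. The complex I median became 0.01 under median-of-ratios scaling, -0.01 after rescaling to nuclear protein-coding TPM and 0.01 after quantile normalization. Medians of the other complexes after rescaling are not given here, so a rise shared by these genes beyond that of all genes was not tested. Ndufab1, the acyl carrier protein that is also a complex I subunit but falls outside the naming rule, was at 28.5 TPM. In the TPM fit of the same comparison Ndufab1 differed by 0.19 ± 0.17 (limma adjusted p = 0.567).

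Medians of markers of other segments differed between groups as well, in directions that varied with the segment. The summed thick ascending limb markers had medians of 87.7 TPM in non-diabetic wild-type vehicle, 38.1 TPM in Akita wild-type vehicle and 61.5 TPM in Akita wild-type dapagliflozin, with the 6 markers all detected in the table. Libraries of these groups overlapped, at 45.7 to 152, 22.0 to 122 and 31.9 to 102 TPM. The 4 markers of the late proximal tubule, the segment that follows the captured one, were all detected and had summed medians of 71.9, 26.4 and 60.3 TPM in these groups, and ranged from 19.7 to 117 TPM over all libraries. In knockouts they had medians of 89.4 TPM in non-diabetic vehicle, 39.3 TPM in Akita vehicle and 69.3 TPM in Akita dapagliflozin. The early proximal tubule markers had medians of 1136, 1172 and 1229 TPM in the same 3 wild-type groups. The part of the other segments in the complex I values was not tested.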

How the data were processed

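Total RNA from the captured tubules was turned into stranded libraries with 0.5 ng as input (DV200 over 30%), per the labels' protocols. The deposited values are TPM per gene, which the authors made with Salmon on GRCm38, per the submitters' processing notes, which also list MultiQC 1.8. For Salmon, its version, annotation and strand setting were not given in the sources used here. TPM keeps no read depth, and abundant ribosomal or mitochondrial rows lower all other values in a library.

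Groups were taken from the labels and 48 columns were matched by title. The capture number is the number in each title, and the title does not say what it stands for. The 12742 genes that reached 1 TPM in 5 or more samples were fitted with limma 3.58.1 (R 4.3.3, statmod 1.5.0) on log2(TPM + 1), 1 mean per group, 9 groups, trended robust variances, 39 residual degrees of freedom, two-sided p, Benjamini-Hochberg adjustment in each of 15 comparisons. Differences are on that scale, which understates changes of low genes. For each comparison the member with the smallest p in each direction was named. Values of 1 member are not reported here; it is kept in the counts, medians and sums. The fit was tested on simulated data. Alternatives were a pseudocount of 0.1, no filter, a filter at 5 TPM, median-of-ratios scaling, rescaling to nuclear protein-coding TPM, quantile normalization, fitting only the compared groups, the capture number as a covariate, leaving out libraries with fewer than 9000 genes, and leaving out each library. Nuclear protein-coding TPM is the sum over genes annotated as protein coding, without Lars2 and without genes of the mitochondrial genome. Near-identical copies were transcripts with at least 90% identity over at least 50% of the copy. The members and gene lists were chosen with earlier results of these data known.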

Additional observations from a re-analysis of the deposited data

Results flagged for a closer look

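Each group was examined for a library far from the rest (Dixon's test at the 95% level) in 14 genes and 2 sums, the genes named by rule among them. Of 144 group checks 13 stood out, where chance gives about 1 in 20, and no explanation was tested.

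The summed 35 subunits were at 1003 TPM in Akita wild-type dapagliflozin replicate 5, the others at 888 to 917 TPM. The same sum as a percentage of nuclear protein-coding TPM was 0.798% in non-diabetic wild-type vehicle replicate 3, the others at 0.883% to 0.897%.

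Akita knockout dapagliflozin replicate 5 stood out in 3 genes: Ndufa3 at 16.0 TPM (others 5.33 to 7.42), Ndufb4 at 30.7 TPM (others 10.7 to 15.8) and Ndufs4 at 52.4 TPM (others 20.8 to 25.5). This library also had the highest nuclear protein-coding share, 14.03%. Ndufs4 was at 3.98 TPM in Akita wild-type vehicle replicate 2 (others 16.5 to 27.7) and Ndufa3 at 5.24 TPM in replicate 5 of that group (others 10.1 to 12.4). Both of these libraries had fewer than 9000 detected genes.

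Ndufa4l2 was at 1.03 TPM in non-diabetic knockout dapagliflozin replicate 5 and at 1.14 TPM in Akita knockout vehicle replicate 1, where every other library of the group was listed at 0. It was at 1.06 TPM in Akita knockout dapagliflozin replicate 1 (others 0 to 0.190). Ndufb4 was at 5.11 TPM in non-diabetic wild-type dapagliflozin replicate 2 (others 10.8 to 12.5), and Ndufv3 at 43.04 TPM in replicate 3 of that group (others 23.3 to 24.0). Ndufb5 was at 17.98 TPM in Akita semaglutide replicate 2 (others 10.3 to 11.1).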

How the results depend on the processing

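The count of 0 members called held in every comparison under every alternative except dapagliflozin in Akita mice over both genotypes, where limma called 1 member (Ndufs1) with the filter at 5 TPM, and between 0 and 1 with single libraries left out. Leaving out single libraries moved Ndufa3 in the diabetes comparison of knockouts between -0.072 and 0.330, Ndufb7 on dapagliflozin in Akita knockouts between -0.136 and 0.053, and Ndufb5 on semaglutide against dapagliflozin between -0.047 and 0.261, so these signs rest on single libraries. The gap between the member median and the all-gene median kept its sign under every alternative, single libraries left out included, in 8 of 15 comparisons, and changed it in 4 of the 9 other alternatives for diabetes in wild types. It moved from 0.14 to -0.06 for diabetes in knockouts and from 0.24 to 0.51 for the dapagliflozin effect by diabetes in wild types when low genes were not filtered out, which tests 29271 genes. In the latter the all-gene median went from 0.32 to 0.05. That gap was smaller elsewhere, at 0.10 without the libraries of fewer than 9000 genes, 0.14 under median-of-ratios scaling and 0.16 with a pseudocount of 0.1. Genes called over the whole table ranged from 0 to 233 for dapagliflozin in Akita and from 4 to 128 for diabetes, against 104 and 71, and from 9 to 378 and from 11 to 313 with single libraries left out. No paired analysis was possible because the labels give no replicate numbers that tie libraries of different groups. Without read counts, low members such as Ndufa4l2 and Ndufb3 have no counting interval.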
